A study of Homo sapiens with 12 samples.

Results

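The cholesterol genes examined were HMGCS1, IDI1, FDPS, FDFT1, SQLE, DHCR7, INSIG1 and SREBF2, taken by name from the deposited array table. These 8 of 34599 gene names were carried by 12 probes, and all 12 probes passed the filter on detection, so no member was lost before testing. HMGCS1, IDI1, FDPS and SREBF2 had 1 probe each, and FDFT1, SQLE, DHCR7 and INSIG1 had 2 probes each. None of the 8 encodes an uptake receptor, and genes of sterol sensing and uptake were followed in a separate list.

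MIA PaCa-2 and Capan-1, the cells profiled, are established lines from human pancreatic ductal adenocarcinoma (PDAC). Each line carried a scrambled control hairpin (shCtrl) or 1 of 2 hairpins against focal adhesion kinase (FAK, encoded by PTK2), called sh1209 and sh1319. All 6 groups, controls included, carried a puromycin-selected Tet-pLKO vector, were kept for 96 hours in doxycycline at 50 ng/ml, and were hybridized as 2 arrays per group. MIA PaCa-2 cells were kept in 3.5 µg/ml puromycin and Capan-1 cells in 1.5 µg/ml. The study asked how the extracellular matrix and FAK bear on cancer stem cells in PDAC, including clonogenic growth, self-renewal and metastasis. The arrays profiled cells after FAK knockdown. No label says if the 2 samples in each group were separate cultures, so the p-values below measure the spread between these samples, which may be technical.

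Cells build cholesterol from acetyl-CoA through the mevalonate pathway, which passes through isoprenoid diphosphates and squalene before the sterol rings are formed. Transcription of the pathway is set by SREBP-2, the product of SREBF2, a membrane-bound factor that SCAP escorts from the endoplasmic reticulum to the Golgi for cleavage when membrane sterol is low. INSIG1 holds SCAP and SREBP-2 in the endoplasmic reticulum when sterol is plentiful and is itself a target of the pathway. Cleaved SREBP binds sterol regulatory elements and some E-boxes near target promoters, usually beside CCAAT and GC boxes for the factors NF-Y and Sp1.

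Promoters of 3 members are shown because these genes stand for the start of the pathway (HMGCS1), its feedback (INSIG1) and its regulator (SREBF2). The sequences are from RefSeq on GRCh38.p14, run 5′ to 3′ on the strand of the gene from 250 bases before to 50 bases after the first start site in the table, and span chr5:43313363-43313662 (minus strand), chr7:155297628-155297927 (plus strand) and chr22:41832855-41833154 (plus strand). Capitals mark matches to TCACNCCAC (sterol regulatory element), TCACGTGA (E-box, a palindrome) or CCAAT, the last seen as ATTGG when on the opposite strand.
HMGCS1: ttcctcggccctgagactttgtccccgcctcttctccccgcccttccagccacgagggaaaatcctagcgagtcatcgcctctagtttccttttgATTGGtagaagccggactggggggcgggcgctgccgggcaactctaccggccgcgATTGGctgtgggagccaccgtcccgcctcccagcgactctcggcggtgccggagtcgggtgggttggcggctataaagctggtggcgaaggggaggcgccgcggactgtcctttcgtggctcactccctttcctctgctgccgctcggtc
INSIG1: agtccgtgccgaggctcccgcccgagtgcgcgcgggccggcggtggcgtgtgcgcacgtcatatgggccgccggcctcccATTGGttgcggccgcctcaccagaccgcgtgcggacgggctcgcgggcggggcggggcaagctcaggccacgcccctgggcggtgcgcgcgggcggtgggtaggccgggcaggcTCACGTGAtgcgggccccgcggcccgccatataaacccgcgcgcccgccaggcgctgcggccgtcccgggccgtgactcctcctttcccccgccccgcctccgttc
SREBF2: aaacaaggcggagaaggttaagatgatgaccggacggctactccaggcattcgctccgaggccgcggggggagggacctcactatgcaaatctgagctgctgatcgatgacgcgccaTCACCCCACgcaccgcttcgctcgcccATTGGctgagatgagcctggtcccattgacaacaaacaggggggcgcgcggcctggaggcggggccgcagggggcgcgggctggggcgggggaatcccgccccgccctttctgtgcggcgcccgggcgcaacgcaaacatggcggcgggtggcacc
The HMGCS1 stretch held 2 CCAAT boxes, 155 and 100 bases before the start, both on the opposite strand. The INSIG1 stretch held the E-box 56 bases before the start, and the SREBF2 stretch held TCACCCCAC 133 bases before the start. Taking the first listed start site of each gene, TCACNCCAC on either strand was in 1 of the 6 members with an entry in the table and TCACGTGA in 1, against 1.15% and 1.04% of 27305 genes. CCAAT was in 5 of 6, against 35.7% of genes, and the GC box GGGCGG was in 6 of 6, against 44.6%. Counting any listed start site, TCACNCCAC and TCACGTGA were each in 0 of 12 other enzymes of the pathway. Each was also in 0 of 8 genes of sterol sensing and uptake and 0 of 9 of fatty acid synthesis. CCAAT and GGGCGG were in 10 and 11 of those 12 enzymes. The E-box letters were added after the INSIG1 sequence had been seen, and a match describes letters, not a bound site.

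PTK2 was examined first as the target of the hairpins. Its brighter probe stood at 9.46 ± 0.0062 (log2 intensity, SD, n = 2) in MIA PaCa-2 shCtrl, 7.21 ± 0.09 with sh1209 and 6.97 ± 0.07 with sh1319. In Capan-1 it stood at 10.26 ± 0.13, 9.65 ± 0.02 and 8.48 ± 0.01. At this probe, 450253, PTK2 thus fell to 21.1% and 17.9% of shCtrl in MIA PaCa-2 cells and, among Capan-1 cells, to 65.4% with sh1209 and 29.2% with sh1319 (limma, adjusted p = 1.5e-07, 5.2e-08, 0.0036 and 5.9e-06). Its sh1209 and sh1319 levels did not differ beyond the threshold in MIA PaCa-2 (0.24 ± 0.11, log2 difference and SE, adjusted p = 0.17) and differed in Capan-1 (1.16 ± 0.11, adjusted p = 6.2e-05). A dimmer second PTK2 probe, 2680750, with group means from 4.76 to 5.97, went partly the other way. It changed by 0.31 and -0.29 in MIA PaCa-2 and by -0.46 with each hairpin in Capan-1, none of which passed. Between the hairpins it differed by 0.59 ± 0.16 in MIA PaCa-2 (adjusted p = 0.021), and in Capan-1 by -0.00054 without passing.

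The 12 arrays had median intensities of 87.7 to 97, and 16259 to 19814 of 47228 probes were detected. Since most probes were not detected on any given array, these medians describe background rather than the brightness of the signal. KRT8 and KRT18 were detected in both lines, whereas CDH1, EPCAM and KRT7 were not detected in MIA PaCa-2 shCtrl and were at least 28.7-fold, 99.1-fold and 32.8-fold higher in Capan-1 shCtrl. Of 14 immune and endothelial probes 6 passed the detection filter, and of 13 mesenchymal and fibroblast probes 5 passed. PTPRC, CD3E, CDH5, DCN, ZEB1, COL1A1 and PDGFRB had no probe that passed. CD68 was detected on all 12 arrays at probes 3120370 and 4570438, with group means from 7.41 to 9.36, and single probes of CD79A, PECAM1 and VWF passed with group means up to 5.34. VIM in MIA PaCa-2 shCtrl was 188 times its Capan-1 shCtrl level at probe 830593, detected in both lines, and at least 294 times at probe 7050019, which was not detected in Capan-1. CDH2, of the same list, went the other way. It was not detected in MIA PaCa-2 shCtrl and was at least 2.33-fold higher in Capan-1 shCtrl.

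Some marker genes also changed with knockdown. Among all tested probes of MIA PaCa-2 cells, 9.05% rose and 8.99% fell under sh1209, and 12.2% rose and 12.1% fell under sh1319. In Capan-1, 8.14% rose and 8.69% fell under sh1209, and 6.95% rose and 6.77% fell under sh1319. A single probe of the short marker lists already exceeds these shares, so counts of 1 are not a result about the markers. Of 8 epithelial probes, 1 fell with sh1209 in MIA PaCa-2, 1 rose and 3 fell with sh1319, and in Capan-1 1 rose and 1 fell with sh1209 and 1 fell with sh1319. KRT19 fell by 1.44 and by 1.47 on the log2 scale in MIA PaCa-2 with sh1209 and sh1319 (limma, adjusted p = 0.00025 and 0.00013). Both knockdown groups were then near background (means 4.60 and 4.56), each detected on 1 of 2 arrays, which limits the size of the fall. Of 5 tested mesenchymal and fibroblast probes, none fell, and 1 rose in each pair except sh1319 in Capan-1, where 2 rose, among them VIM probe 830593 (0.47, adjusted p = 0.036). COL3A1, a fibrillar collagen, was not detected in MIA PaCa-2 shCtrl and was at least 8.26-fold above it under sh1209 and at least 6.78-fold under sh1319. This was the probe that rose in both MIA PaCa-2 pairs. It was detected only in the sh1209 and sh1319 groups of MIA PaCa-2. COL3A1 thus passed the detection filter only through the groups where it was high, so the filter favoured its rise. Of 6 tested immune and endothelial probes, none fell, 1 rose with sh1209 in MIA PaCa-2 (CD68, 0.81) and 2 rose with sh1209 in Capan-1, among them PECAM1 (0.57, adjusted p = 0.042). The other was VWF, detected only in Capan-1 sh1209. VWF passed the detection filter only through the group where it was high, so the filter favoured its rise. The part of these markers in the results below was not tested.

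In MIA PaCa-2, IDI1, FDFT1, SQLE and INSIG1 fell with sh1209 and rose with sh1319, while HMGCS1 and DHCR7 rose with sh1319 without passing for sh1209. With sh1319, 9 of the 12 probes rose, covering HMGCS1, IDI1, FDFT1, SQLE, DHCR7 and INSIG1, where 12.2% of all 24207 tested probes rose. With sh1209, 6 of the 12 probes fell, covering IDI1, FDFT1, SQLE and INSIG1, where 8.99% of all tested probes fell. No member rose with sh1209, where 9.05% of all tested probes rose, and no member fell with sh1319, where 12.1% fell. The median log2 change over the 12 probes was 0.80 with sh1319 and -0.43 with sh1209, beside -0.01 and 0.01 over all tested probes. Both comparisons use the same 2 shCtrl arrays. The count with sh1319 was 8 or 9 whichever array was left out, whereas that with sh1209 was 3 without shCtrl replicate 2 or without sh1209 replicate 2, and 1 under median scaling.

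**Figure D1:**
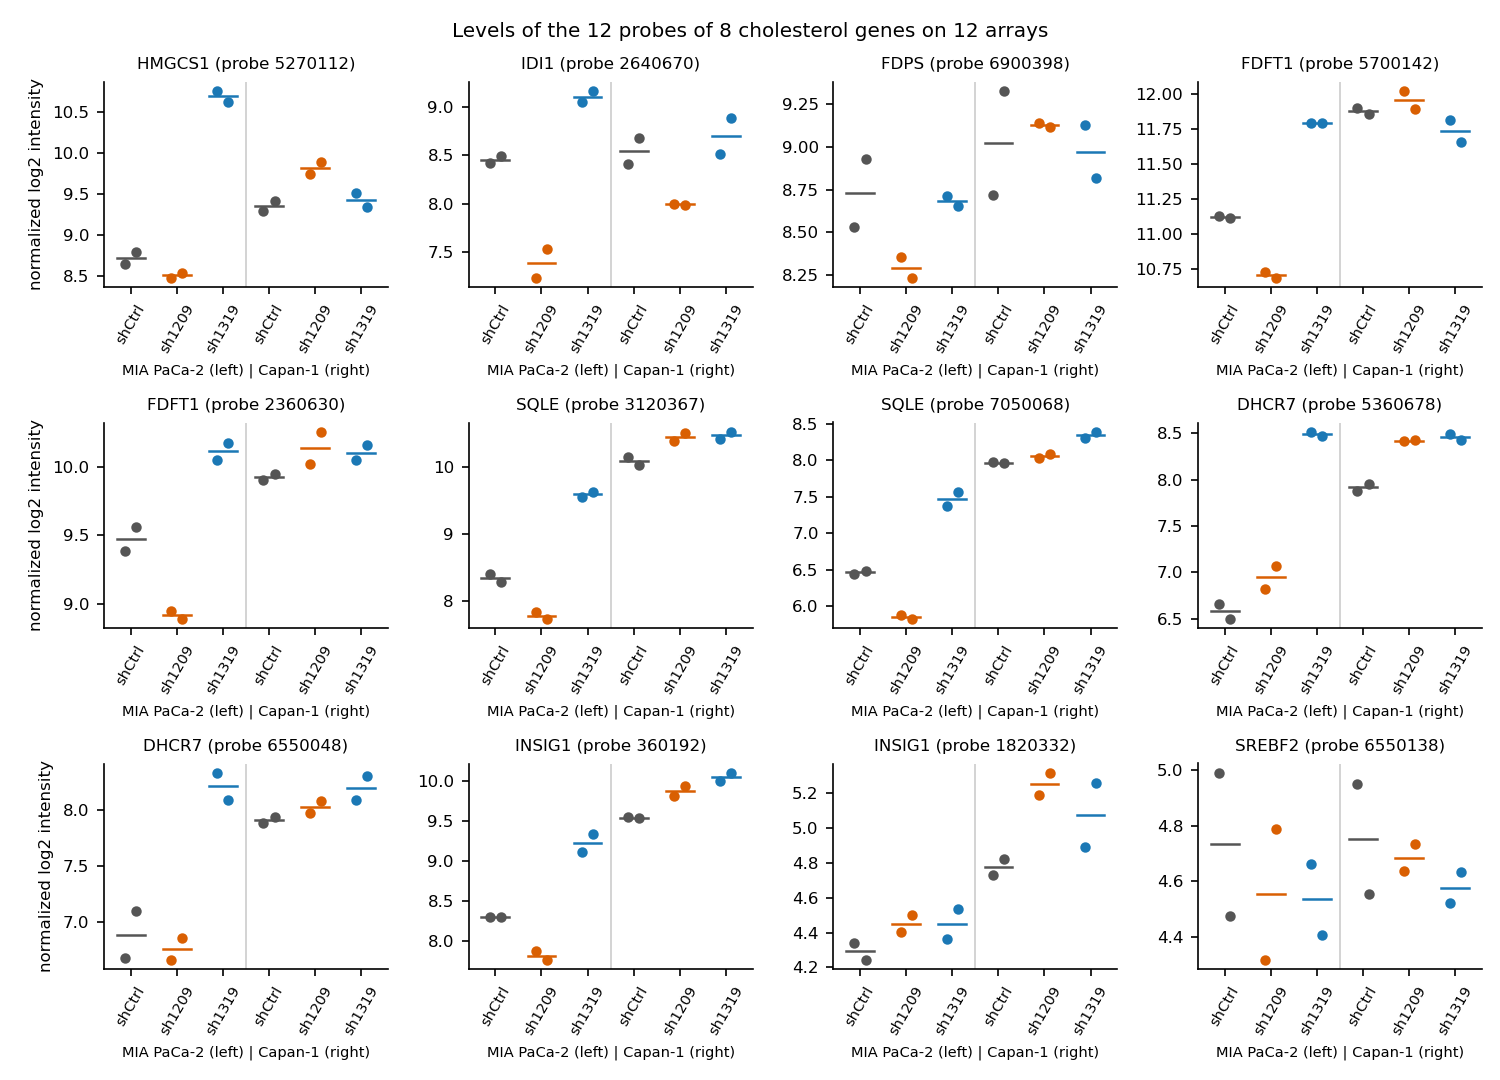
Normalized log2 intensity of each probe on each array (points), with the group mean (line), by hairpin, MIA PaCa-2 left and Capan-1 right of the grey rule. Each panel has its own vertical axis, so levels are not comparable between panels. In MIA PaCa-2 the sh1319 arrays stand highest for HMGCS1, IDI1, FDFT1, SQLE and DHCR7 and for INSIG1 probe 360192, and the sh1209 arrays stand lowest for most of these.

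The earliest member of the pathway is HMGCS1. This gene of the cytosolic synthase that makes HMG-CoA stood at log2 intensities of 8.64 and 8.79 in MIA PaCa-2 shCtrl, 8.48 and 8.54 with sh1209, and 10.76 and 10.62 with sh1319. The sh1319 arrays were thus far above all others of the line, and the sh1209 arrays were just below the controls. HMGCS1 rose by 1.97 ± 0.12 (log2 change and SE, limma, adjusted p = 4.9e-07) with sh1319, and changed by -0.21 ± 0.12 (adjusted p = 0.29) with sh1209. In Capan-1 it stood at 9.30 and 9.41 in shCtrl, 9.75 and 9.89 with sh1209, and 9.51 and 9.35 with sh1319. Here it was sh1209 whose arrays were above the controls, by 0.47 ± 0.12 (adjusted p = 0.022, not passing when any 1 of the 4 arrays was left out), while sh1319 overlapped shCtrl (0.08 ± 0.12, adjusted p = 0.78).

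IDI1 and FDPS act on the isoprenoid diphosphates. IDI1, the isomerase that interconverts isopentenyl and dimethylallyl diphosphate, stood at 8.42 and 8.49 in MIA PaCa-2 shCtrl, 7.23 and 7.53 with sh1209, and 9.05 and 9.17 with sh1319. The 3 groups did not overlap, with a fall of 1.07 on the log2 scale for sh1209 (SE 0.16, adjusted p = 6e-04) and a rise of 0.65 ± 0.16 for sh1319 (adjusted p = 0.01). IDI1 was the only member that fell with sh1209 in both lines: in Capan-1 it stood at 8.41 and 8.68 in shCtrl and at 7.99 on both sh1209 arrays, a change of -0.56 ± 0.16 (adjusted p = 0.031). The rise with sh1319 did not pass without shCtrl replicate 1 or sh1319 replicate 2, and the fall in Capan-1 did not pass without shCtrl replicate 2 or either sh1209 array. FDPS, which makes farnesyl diphosphate, had the lowest and highest of its 12 values at 8.23 (MIA PaCa-2 sh1209) and 9.33 (Capan-1 shCtrl). Its 2 Capan-1 shCtrl arrays were 8.72 and 9.33, and no comparison of FDPS passed. RefSeq lists 10 pseudogenes named after FDPS and 3 named after IDI1, and whether the probes match them was not examined, since probe sequences were not used here.

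Squalene is made and oxidized by the next pair of enzymes. FDFT1, squalene synthase, stood at 11.13 and 11.11 (probe 5700142) in MIA PaCa-2 shCtrl, 10.73 and 10.69 with sh1209, and 11.79 and 11.80 with sh1319. The 3 groups did not overlap, with a change of -0.42 ± 0.11 for sh1209 (adjusted p = 0.022) and 0.67 ± 0.11 for sh1319 (adjusted p = 0.00085). Probe 2360630 of FDFT1 gave -0.55 ± 0.12 and 0.64 ± 0.12 (adjusted p = 0.0088 and 0.0025). The fall with sh1209 at probe 5700142 did not pass when any 1 of its 4 arrays was left out, and that at probe 2360630 did not pass without replicate 2 of shCtrl or of sh1209. In Capan-1, neither FDFT1 probe passed with either hairpin.

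SQLE, the epoxidase that oxidizes squalene, stood at 8.41 and 8.29 (probe 3120367) in MIA PaCa-2 shCtrl, 7.83 and 7.73 with sh1209, and 9.54 and 9.63 with sh1319. Its groups did not overlap, with a change of -0.56 ± 0.12 for sh1209 (adjusted p = 0.0053) and 1.24 ± 0.12 for sh1319 (adjusted p = 1.3e-05). Probe 7050068 of SQLE gave -0.61 ± 0.11 and 1.01 ± 0.11 (adjusted p = 0.003 and 5.5e-05). All 4 of these calls stood whichever array was left out. In Capan-1, where SQLE stood at 10.14 and 10.02 in shCtrl and at 10.42 and 10.52 with sh1319, both probes rose with sh1319 (0.39 ± 0.12 and 0.38 ± 0.11, adjusted p = 0.045 and 0.048). Neither of those rises passed when any 1 of the 4 arrays was left out. With sh1209 in Capan-1, SQLE changed by 0.36 ± 0.12 and 0.08 ± 0.11 (adjusted p = 0.053 and 0.72).

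DHCR7 reduces 7-dehydrocholesterol to cholesterol at the end of the pathway. Its probe 5360678 stood at 6.66 and 6.50 in MIA PaCa-2 shCtrl, 6.82 and 7.07 with sh1209, and 8.51 and 8.47 with sh1319. Unlike the squalene enzymes, its sh1209 arrays lay above the controls, although the difference of 0.37 ± 0.12 did not pass (adjusted p = 0.059, passing without sh1209 replicate 1), and the sh1319 arrays lay well above both. The rise with sh1319 was 1.91 ± 0.12 (adjusted p = 5.8e-07) and, at probe 6550048, 1.32 ± 0.16 (adjusted p = 8.6e-05). The probes disagreed in sign for sh1209, where probe 6550048 gave -0.13 ± 0.16 (adjusted p = 0.66). In Capan-1, DHCR7 probe 5360678 was 7.88 and 7.96 in shCtrl, 8.41 and 8.43 with sh1209, and 8.49 and 8.42 with sh1319. Both hairpins lay above the controls by close amounts, 0.51 ± 0.12 and 0.54 ± 0.12 (adjusted p = 0.015 and 0.012), while probe 6550048 gave 0.12 ± 0.16 and 0.28 ± 0.16 without passing. The rise with sh1209 did not pass when any 1 of its 4 arrays was left out, and that with sh1319 passed only when shCtrl replicate 2 was left out.

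INSIG1, the sterol sensor's anchor, stood at 8.30 and 8.30 (probe 360192) in MIA PaCa-2 shCtrl, 7.87 and 7.77 with sh1209, and 9.12 and 9.35 with sh1319. It fell with sh1209 and rose with sh1319, by -0.48 ± 0.12 and 0.93 ± 0.12 (adjusted p = 0.016 and 0.00015), the fall not passing without either shCtrl array or without sh1209 replicate 2. In Capan-1 it stood at 9.55 and 9.54 in shCtrl, 9.82 and 9.94 with sh1209, and 10.01 and 10.10 with sh1319. All 4 knockdown arrays were above the controls, and the sh1319 change passed (0.51 ± 0.12, adjusted p = 0.015) while the sh1209 change did not (0.33 ± 0.12, adjusted p = 0.082). The sh1319 change did not pass without either shCtrl array or without sh1319 replicate 2. A second INSIG1 probe, 1820332, was not detected on any MIA PaCa-2 array and gives no fold there. In Capan-1 it stood at 4.73 and 4.82 in shCtrl and 5.19 and 5.32 with sh1209, a rise of 0.48 ± 0.14 (adjusted p = 0.037) that did not pass when any 1 of the 4 arrays was left out.

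SREBF2, the gene of SREBP-2 itself, was close to background. Its probe was detected on 6 of the 12 arrays, with log2 intensities from 4.32 to 4.99, and on neither MIA PaCa-2 sh1319 array. The 2 MIA PaCa-2 shCtrl arrays differed by more (4.99 and 4.48) than the means of any 2 groups, and no comparison passed. The 95% interval of its sh1209 change in Capan-1, -0.52 to 0.38, shows the size that this probe could not resolve.

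**Figure D2:**
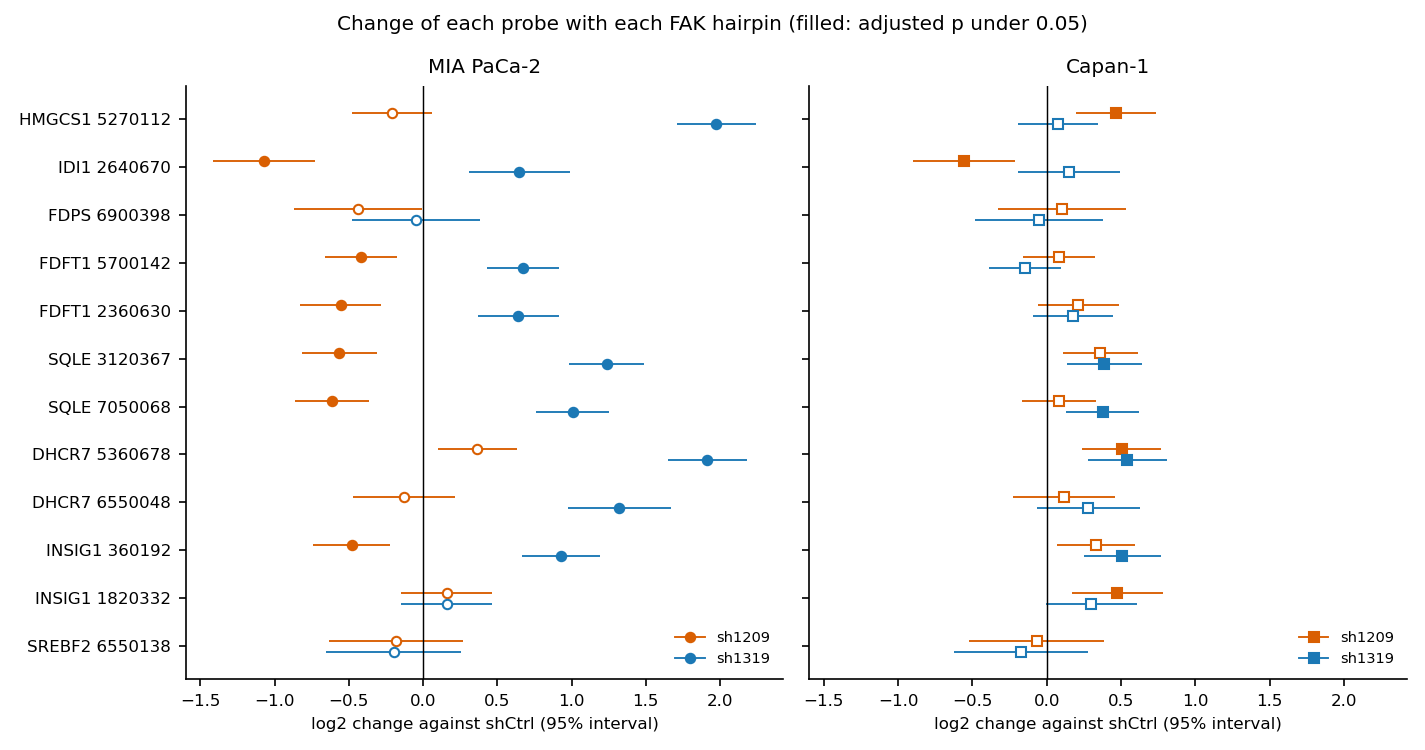
Log2 change of each probe against the shCtrl arrays of the same line (points) with its 95% interval (bars) for sh1209 (orange) and sh1319 (blue), MIA PaCa-2 left and Capan-1 right. Filled points passed at an adjusted p under 0.05. In MIA PaCa-2 9 blue points are filled to the right of 0 and 6 orange points to its left, and in Capan-1 all filled points lie at 0.54 or below in size except IDI1 at -0.56. INSIG1 probe 1820332 was not detected in MIA PaCa-2, so its values in the left panel are near background.

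In Capan-1 fewer member probes passed with sh1319 than in MIA PaCa-2, and with sh1209 the calls ran mostly upward. With sh1209, 3 of 12 probes rose (HMGCS1, DHCR7 and INSIG1), where 8.14% of all tested probes rose, and 1 fell (IDI1), where 8.69% fell. With sh1319, 4 of 12 probes rose, covering SQLE, DHCR7 and INSIG1, where 6.95% of all tested probes rose, and none fell, where 6.77% fell. The median log2 change over the 12 probes was 0.17 with sh1209 and 0.23 with sh1319. Leaving out any 1 array of the comparison left 0 or 1 call for each hairpin: with sh1209, 1 without shCtrl replicate 1 and 0 without shCtrl replicate 2 or either sh1209 array; with sh1319, 1 without shCtrl replicate 2 or sh1319 replicate 1 and 0 without the other arrays. When arrays were scaled on the median of probes detected on all 12 arrays, a setting chosen after seeing the data, the median of all probes lay at -0.13 for each hairpin and 1 member probe was called for each.

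Set against each other, without the shCtrl arrays, the hairpins differed for most cholesterol genes in MIA PaCa-2. In that line 9 of 12 probes of the same 6 genes were lower with sh1209 than with sh1319, where 11.2% of all tested probes were lower. HMGCS1 differed by -2.18 ± 0.12 (log2, sh1209 minus sh1319, adjusted p = 3.3e-07), SQLE by -1.80 ± 0.12 (adjusted p = 8e-07) and IDI1 by -1.72 ± 0.16 (adjusted p = 1.2e-05). The smallest difference that passed was -1.09 ± 0.11 at FDFT1 probe 5700142, and FDPS gave -0.39 ± 0.20 (adjusted p = 0.2). The count stayed at 9 whichever array was left out. PTK2 in the same 4 MIA PaCa-2 arrays differed by 0.24 ± 0.11 at probe 450253 and by 0.59 ± 0.16 at probe 2680750, and its part in the result was not tested.

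In Capan-1, 1 of 12 probes was lower with sh1209 than with sh1319, where 5.47% of all tested probes were lower. That probe was IDI1 (-0.71 ± 0.16, adjusted p = 0.014), whose call was lost without either sh1209 array or without sh1319 replicate 2, leaving a count of 0. For the other probes the 95% intervals of the difference lay between -0.54 (SQLE probe 7050068) and 0.66 (HMGCS1).

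**Figure D3:**
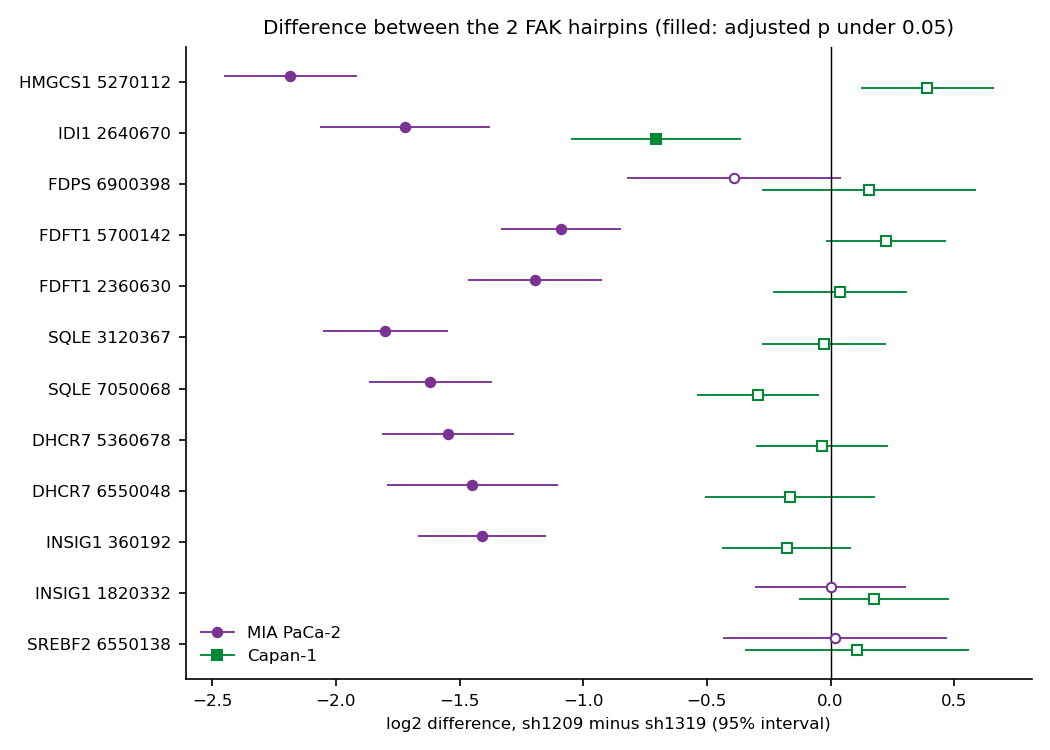
Log2 difference between the hairpins, sh1209 minus sh1319 (points), with its 95% interval (bars), in MIA PaCa-2 (purple circles) and Capan-1 (green squares). Filled points passed at an adjusted p under 0.05. The 9 filled MIA PaCa-2 points run from -2.18 (HMGCS1) to -1.09 (FDFT1 probe 5700142), and IDI1 at -0.71 is the filled Capan-1 point.

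With both hairpins averaged against shCtrl, 4 of 12 probes rose in MIA PaCa-2, those of HMGCS1 (0.88 ± 0.11, adjusted p = 0.00012), DHCR7 (1.14 ± 0.11 and 0.60 ± 0.14, adjusted p = 1.7e-05 and 0.0085) and SQLE at probe 3120367 (0.34 ± 0.10, adjusted p = 0.032), where 10.6% of all tested probes rose. For HMGCS1, SQLE and DHCR7 probe 6550048 the 2 hairpins averaged here had changes of opposite sign. SQLE did not pass without either shCtrl array, sh1209 replicate 1 or sh1319 replicate 2, and the count was 2 without shCtrl replicate 1. In Capan-1 also 4 of 12 probes rose, where 8.05% of all tested probes rose: SQLE at probe 3120367 (0.37 ± 0.10, adjusted p = 0.024), DHCR7 at probe 5360678 (0.52 ± 0.11, adjusted p = 0.0057) and INSIG1 at probes 360192 and 1820332 (0.42 ± 0.10 and 0.39 ± 0.12, adjusted p = 0.016 and 0.048). The Capan-1 count was 0 without shCtrl replicate 1, 1 without shCtrl replicate 2 and 2 without replicate 2 of either FAK hairpin.

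The lines also differed before any FAK hairpin. With shCtrl, 9 of 12 probes of HMGCS1, FDFT1, SQLE, DHCR7 and INSIG1 were lower in MIA PaCa-2 cells than in Capan-1 cells, where 19.6% of all tested probes were lower. SQLE differed most, by -1.73 ± 0.12 (log2, adjusted p = 1.6e-07) at probe 3120367, followed by DHCR7 at probe 5360678 (-1.33 ± 0.12, adjusted p = 2.7e-06) and INSIG1 at probe 360192 (-1.24 ± 0.12, adjusted p = 4.1e-06). INSIG1 probe 1820332, undetected in MIA PaCa-2 shCtrl, was at least 1.05-fold lower there. It was detected only in Capan-1 and passed the detection filter only through that line, so the filter favoured its place among the 9. This probe did not pass without replicate 2 of either line, nor did FDFT1 probe 2360630 without MIA PaCa-2 replicate 1 or Capan-1 replicate 2. IDI1, FDPS and SREBF2 gave -0.09 ± 0.16, -0.29 ± 0.20 and -0.02 ± 0.21 and did not pass. With sh1319, DHCR7 probe 5360678 in MIA PaCa-2 (8.51 and 8.47) reached the range of the Capan-1 knockdown arrays (8.41 to 8.49), whereas SQLE probe 3120367 (9.54 and 9.63) stayed below every Capan-1 array. HMGCS1 (10.76 and 10.62) and IDI1 (9.05 and 9.17) stood above every Capan-1 array, the highest of which were 9.89 and 8.89.

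The change with knockdown was then compared between the lines. For the mean of both hairpins, 2 probes differed, HMGCS1 (0.61 ± 0.15, MIA PaCa-2 minus Capan-1, adjusted p = 0.019) and DHCR7 probe 5360678 (0.62 ± 0.15, adjusted p = 0.017), where 14.4% of all tested probes differed in either direction. HMGCS1 did not pass without MIA PaCa-2 shCtrl replicate 1, DHCR7 did not pass without MIA PaCa-2 shCtrl replicate 2, and neither passed without Capan-1 shCtrl replicate 2. Each hairpin was also compared on its own, a comparison added after seeing the data. The sh1209 change was lower in MIA PaCa-2 at 5 of 12 probes, of HMGCS1, FDFT1, SQLE and INSIG1, where 14.8% of all tested probes differed. The sh1319 change was higher in MIA PaCa-2 at 6 of 12 probes, of HMGCS1, FDFT1, SQLE and DHCR7, where 14% of all tested probes differed. The largest of these was HMGCS1 with sh1319 (1.90 ± 0.17, adjusted p = 3e-05), and the count for sh1209 was 3 without Capan-1 sh1209 replicate 2. Under median scaling the counts were 0 of 2 for the mean of both hairpins, 2 of 5 for sh1209 (SQLE probe 3120367 and INSIG1) and 3 of 6 for sh1319 (HMGCS1 and both DHCR7 probes). The PTK2 change differed between the lines by -1.63 ± 0.16 with sh1209 and -0.71 ± 0.16 with sh1319 at probe 450253, but by 0.77 ± 0.23 (adjusted p = 0.046) and 0.17 ± 0.23 (adjusted p = 0.7) at the dimmer probe 2680750, and its part in these differences was not tested.

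The remaining enzymes of the pathway were followed in a list of 15 genes with 19 tested probes. With sh1319 in MIA PaCa-2, 12 of the 19 probes, of 10 genes, rose and none fell, and the median log2 change was 0.71. There 12.2% of all tested probes rose and 12.1% fell. With sh1209 in MIA PaCa-2, 2 rose and 2 fell, with a median of 0.10, where 9.05% and 8.99% of all tested probes rose and fell. Between the hairpins in MIA PaCa-2, 11 of 19 probes, of 9 genes, were lower with sh1209, where 11.2% of all tested probes were lower. In Capan-1, 2 rose and 1 fell with sh1209, where 8.14% and 8.69% of all tested probes rose and fell, and 4 rose and none fell with sh1319, where 6.95% and 6.77% did.

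TM7SF2, a sterol reductase, rose in all 4 pairs, by 0.42, 1.12, 0.78 and 0.83 for sh1209 and sh1319 in MIA PaCa-2 and then in Capan-1, although the first of these was lost without either shCtrl array or without sh1209 replicate 2. GGPS1, which diverts farnesyl diphosphate to geranylgeranyl diphosphate, was lower with sh1209 than sh1319 in both lines at probe 1260520 (-1.16 and -0.64, adjusted p = 1.5e-05 and 0.0029). SC4MOL, the sterol methyl oxidase now named MSMO1, was singled out after its values were seen: with sh1319 in MIA PaCa-2 it rose by 2.25 and 2.24 at probes 4200037 and 5860348 (adjusted p = 3.3e-07 and 7.6e-07), while probe 1660719 gave -0.39 and did not pass.

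The sterol sensing and uptake list had 12 tested probes of 11 genes. In MIA PaCa-2, 5 rose and none fell with sh1319 and 1 fell with sh1209, and in Capan-1 2 rose and 2 fell with sh1209 and 1 rose with sh1319. Over all tested probes in MIA PaCa-2, 12.2% rose and 12.1% fell with sh1319, and 8.99% fell with sh1209. In Capan-1, 8.14% of them rose and 8.69% fell with sh1209, and 6.95% rose with sh1319. NPC2, which carries cholesterol out of lysosomes, fell by 0.40 on the log2 scale with sh1209 in MIA PaCa-2 (adjusted p = 0.032), a call lost when any 1 of the 4 arrays was left out.

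The list of efflux, esterification and LXR genes had 12 tested probes of 7 genes. In MIA PaCa-2, 3 rose and 2 fell with sh1209 and 3 rose and 1 fell with sh1319, and in Capan-1 4 rose and 1 fell with sh1209 and 5 rose and none fell with sh1319. Over all tested probes 9.05%, 12.2%, 8.14% and 6.95% rose in these pairs, and 8.99%, 12.1%, 8.69% and 6.77% fell. AADACL1, the cholesteryl ester hydrolase now named NCEH1, rose at both probes in all 4 pairs. At probe 7650020 it rose by 1.41 and 3.17 in MIA PaCa-2 and by 1.58 and 2.16 in Capan-1 for sh1209 and sh1319 (adjusted p = 6.7e-05, 7e-08, 3.8e-05 and 1.1e-05). SOAT1, which esterifies cholesterol for storage, fell by 1.01 and by 1.17 on the log2 scale in MIA PaCa-2 with sh1209 and sh1319 (adjusted p = 0.007 and 0.0019), the first lost without shCtrl replicate 1 or sh1209 replicate 2.

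The fatty acid synthesis genes, which belong to the SREBP-1 branch, had 15 tested probes of 9 genes. In MIA PaCa-2, 4 rose and 6 fell with sh1209, and 9 rose and none fell with sh1319. In Capan-1, none rose and 4 fell with sh1209, and 4 rose and 2 fell with sh1319. Over all tested probes in MIA PaCa-2, 9.05% rose and 8.99% fell with sh1209, and 12.2% rose and 12.1% fell with sh1319. In Capan-1 the shares were 8.14% and 8.69% with sh1209, and 6.95% and 6.77% with sh1319. SCD, the stearoyl-CoA desaturase, fell by 2.80 on the log2 scale with sh1209 in MIA PaCa-2 and by 0.82 in Capan-1 (adjusted p = 5.5e-08 and 0.0011), while with sh1319 it gave 0.05 in MIA PaCa-2 without passing and rose by 0.62 in Capan-1 (adjusted p = 0.0075). ELOVL6, a fatty acid elongase, was not detected in MIA PaCa-2 shCtrl at probe 5670040, where sh1209 arrays were at least 4.73-fold above it and sh1319 arrays at least 5.80-fold, while in Capan-1 it fell by 1.03 and by 0.87 (adjusted p = 0.00038 and 0.0015). The SCD rise in Capan-1 did not pass without replicate 2 of shCtrl or of sh1319.

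**Figure D4:**
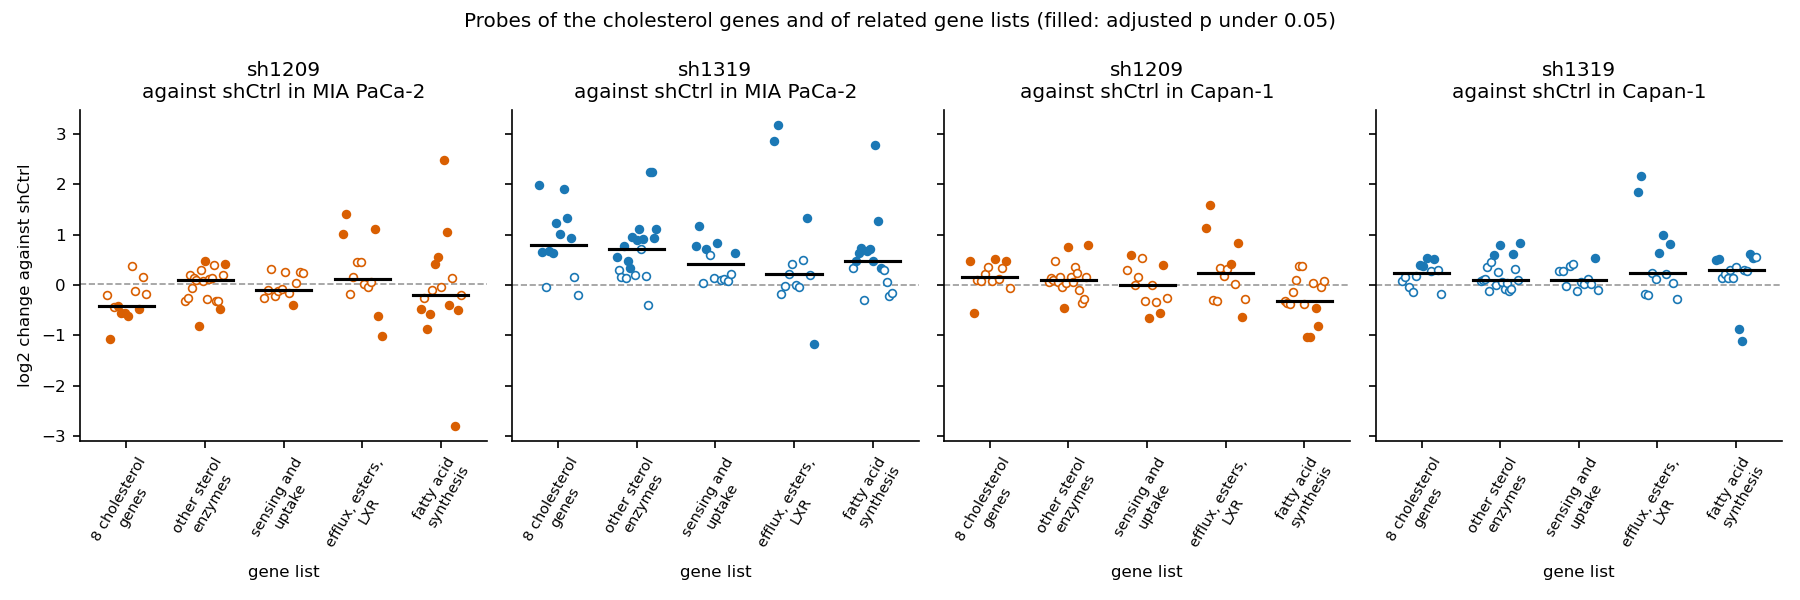
Log2 change against shCtrl of every tested probe (points) of the 8 cholesterol genes and of 4 related lists, in the 4 hairpin and cell line pairs. Black bars are list medians, the dashed line is the median of all 24207 tested probes, and filled points passed at an adjusted p under 0.05. The median of the 8 genes lies at -0.43, 0.80, 0.17 and 0.23 from left to right.

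Across the 12 arrays, with values centred on the mean of each line, most members followed one another. Taking the brighter probe of each gene, the Pearson correlation of a member with the mean of the other 7 genes was 0.98 for SQLE, 0.95 for INSIG1, 0.94 for HMGCS1, 0.93 for FDFT1, 0.82 for DHCR7 and 0.75 for IDI1. FDPS gave 0.36 and SREBF2, near background, gave -0.17. Among all other named genes, those closest to the mean of the 8 members were CEBPD (r = 0.991), TAGLN (0.989), BBX (0.982), OSTM1 (0.980), TOR1AIP2 and PLEKHA2, PRCP, PON2, PSMB8 and SRP54, the last at 0.976. CEBPD, a C/EBP family transcription factor, changed by -0.62 and 2.53 with sh1209 and sh1319 in MIA PaCa-2 and by 0.46 and 0.30 in Capan-1. These correlations describe 12 arrays that share 6 groups, so they largely follow the group means. The centred mean of the 8 members ran from -0.59 to 0.72 in MIA PaCa-2 and from -0.14 to 0.07 in Capan-1. The correlations therefore rest mainly on the MIA PaCa-2 arrays. In Capan-1 with sh1209, HMGCS1 changed by 0.47 and IDI1 by -0.56.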

How the data were processed

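Per the labels, 500 ng of total RNA from each of 12 samples was amplified to biotinylated cRNA and hybridized to Illumina HumanHT-12 v4 arrays. The authors deposited probe intensity values on a linear scale with detection p-values, without normalization or background subtraction. The submitters' processing notes name GenomeStudio 2011.1. The table has 47320 rows, of which 92 are controls, and 28 empty columns. Samples were grouped by their labels, with shFAK1319 read as sh1319.

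Background was corrected with limma 3.58.1 in R 4.3.3 (nec, normexp from the detection p-values, offset 16), and arrays were quantile-normalized as log2 values. Probes with detection p under 0.05 on at least 2 arrays were tested, 24207 of 47228. limma fitted 6 group means (6 residual degrees of freedom), with Benjamini-Hochberg adjustment over all tested probes within each comparison and a threshold of 0.05. Precision is limited by having 2 arrays a group. The fit was tested on simulated data.

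The members and lists were chosen with earlier results of these data known. Beside all members and PTK2, the text names from each list the probes with the highest and lowest mean change among those called in at least 1 pair, and the 10 genes most like the members. Some results under this rule are not reported here. A group where a probe was undetected on every array gives a bound, set by the lowest signal among detected probes of each array. Alternatives covered background, offset, scaling, filters, the replicate block, single-line fits, array weights, the methods' t-test and leaving out each array.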

Additional observations from a re-analysis of the deposited data

Results flagged for a closer look

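The following results differed between the cell lines by a test of the difference itself (limma, adjusted over all tested probes, MIA PaCa-2 minus Capan-1, log2). For the mean of both hairpins these were HMGCS1 at 0.61 (adjusted p = 0.019) and DHCR7 probe 5360678 at 0.62 (adjusted p = 0.017). They are 2 of 12 probes, where 14.4% of all tested probes differed in either direction. Neither passed without Capan-1 shCtrl replicate 2.

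For sh1209, in a comparison added after seeing the data, HMGCS1 differed by -0.68 (adjusted p = 0.022), FDFT1 probe 2360630 by -0.77 (adjusted p = 0.012), SQLE probes 3120367 and 7050068 by -0.93 and -0.70 (adjusted p = 0.0028 and 0.013), and INSIG1 probe 360192 by -0.81 (adjusted p = 0.0072). In all of these the probe gave a negative change in MIA PaCa-2 and a positive one in Capan-1. None of them passed against shCtrl in both lines. HMGCS1 passed in Capan-1 only, and the others passed in MIA PaCa-2 only. Over all tested probes, 14.8% differed in either direction for sh1209. HMGCS1 did not pass without MIA PaCa-2 sh1209 replicate 1 or shCtrl replicate 2, or without Capan-1 shCtrl replicate 1 or sh1209 replicate 2, and FDFT1 did not pass without the last of these.

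For sh1319, also added after seeing the data, HMGCS1 differed by 1.90 (adjusted p = 3e-05), FDFT1 probe 5700142 by 0.82 (adjusted p = 0.0053), SQLE probes 3120367 and 7050068 by 0.85 and 0.63 (adjusted p = 0.0054 and 0.023), and DHCR7 probes 5360678 and 6550048 by 1.37 and 1.04 (adjusted p = 0.00033 and 0.0099). Over all tested probes, 14% differed in either direction for sh1319. SQLE probe 7050068 did not pass without 5 of the 8 arrays in turn.

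Under median scaling 5 of these 13 differences passed: SQLE probe 3120367 and INSIG1 for sh1209, and HMGCS1 and both DHCR7 probes for sh1319. The PTK2 change differed between the lines by -1.63 and -0.71 for sh1209 and sh1319 at probe 450253 and by 0.77 and 0.17 at probe 2680750, and its part in these differences was not tested.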

How the results depend on the processing

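The number of arrays, 2 per group, limits these results, and SREBF2 and the second INSIG1 probe lie near background. That INSIG1 probe passed the detection filter only through Capan-1, and it is part of the count between the lines with shCtrl. The counts of member probes called in MIA PaCa-2 with sh1319, between the hairpins in MIA PaCa-2, and between the lines with shCtrl (each 9) stayed within 1.5 times under every alternative except the methods' t-test after Benjamini-Hochberg adjustment, which gave 0, 0 and 5. That t-test called 1, 4, 0 and 0 of all 24207 probes in the 4 hairpin pairs (sh1209 and sh1319 in MIA PaCa-2, then in Capan-1), and gave 0 members in each, 0 and 1 for both hairpins in MIA PaCa-2 and Capan-1, and 0 between the hairpins in Capan-1. Unadjusted, it gave 0 for both hairpins in MIA PaCa-2. Median scaling gave 1 of 6 for sh1209 in MIA PaCa-2, 1 of 4 for sh1319 in Capan-1, 0 of 2 for the difference between lines of the mean of both hairpins, 0 of 1 between the hairpins in Capan-1, and 2 of 5 and 3 of 6 for the sh1209 and sh1319 differences between lines. Median scaling over probes detected on all arrays gave 1 for sh1209, 1 for sh1319 and 1 for both hairpins in Capan-1. Fitting the arrays of 1 cell line gave 2 for sh1319 in Capan-1. Between the hairpins in Capan-1, the count of 1 became 4 without background correction, 3 with an offset of 50, 2 with the stricter filter and 2 with array weights. The causes were not tested.

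Leaving out 1 array gave 3 to 6 calls for sh1209 and 8 to 9 for sh1319 in MIA PaCa-2, 0 to 1 for sh1209 and 0 to 1 for sh1319 in Capan-1, 2 to 4 for both hairpins in MIA PaCa-2 and 0 to 4 in Capan-1, 0 to 2 for the mean difference between lines, 0 to 1 between the hairpins in Capan-1, 3 to 5 for the sh1209 and 5 to 6 for the sh1319 difference between lines.

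Signs turned only for values that had not passed. Median scaling gave 0.13 for FDPS with sh1319 in MIA PaCa-2, 0.14 for FDPS with sh1319 in Capan-1, and -7.33e-05 for INSIG1 probe 1820332 between the hairpins in MIA PaCa-2. Scaling over probes detected on all arrays gave -0.092 for FDFT1 probe 5700142 with sh1209 in Capan-1, and no background correction gave -0.00469 for SREBF2 between the hairpins in MIA PaCa-2. Leaving out 1 array, DHCR7 probe 6550048 with sh1209 in MIA PaCa-2 ranged from -0.34 to 0.085. FDPS ranged from -0.25 to 0.15 with sh1319 in MIA PaCa-2, -0.20 to 0.41 with sh1209 in Capan-1 and -0.36 to 0.26 with sh1319 in Capan-1. SREBF2 ranged from -0.44 to 0.077 and -0.46 to 0.059 with sh1209 and sh1319 in MIA PaCa-2, -0.27 to 0.13 and -0.37 to 0.024 in Capan-1, and -0.22 to 0.25 between the hairpins in MIA PaCa-2. HMGCS1 ranged from -0.0063 to 0.16 and IDI1 from -0.037 to 0.34 with sh1319 in Capan-1, and INSIG1 probe 1820332 from -0.084 to 0.087 between the hairpins in MIA PaCa-2.

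Median scaling moved the median of all probes to as far as 0.11 (sh1319 in Capan-1), and scaling over detected probes moved it to -0.13 with each hairpin in Capan-1 and to 0.11 for the sh1209 difference between lines. The share of higher calls under median scaling against the main setting was 66.6% against 50.3% for sh1319 in MIA PaCa-2, 81.7% against 48.4% and 85.3% against 50.6% for sh1209 and sh1319 in Capan-1, 61.5% against 50.1% and 85.7% against 48.9% for both hairpins in MIA PaCa-2 and Capan-1, 34.7% against 50.6% between the hairpins in MIA PaCa-2, 31.7% against 50.4% for the mean difference between lines, and 26.1% against 49.9% for the sh1209 difference.

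The correlation of replicate differences between groups ran from -0.06 to 0.16. No strong effect shared by replicate number was thus seen, but low correlations cannot show that the samples were unpaired. With the replicate number as a block the count for sh1319 in Capan-1 was 2 in place of 4, and the other 11 counts of member probes were as before.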
